A study of Mus musculus with 12 samples.

Results

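Intracisternal A particle (IAP) elements are endogenous retroviruses of the mouse. They were taken here as the repeat copies of the deposited count table whose family is ERVK and whose subfamily name begins with IAP, which gave 28601 copies in 25 subfamilies, out of 5138235 repeat copies in 1554 subfamilies. Of the 25 subfamilies, 10 are internal parts (the retroviral coding region) and 15 are long terminal repeats (LTRs). At least 1 count fell on 6768 of the 28601 copies. The series compared testes of C57BL/6 mice at postnatal day 16 that were heterozygous (*Mael*+/-) or homozygous mutant (*Mael*-/-) for Maelstrom, a protein needed to make the piRNAs that repress transposons in male germ cells. There was no wild-type group, so the control animals also carried 1 mutant allele. Total RNA and ribosome footprints were each sequenced from 3 extracts per genotype, 12 libraries in all, and whether an extract came from 1 animal is not stated. P-values therefore measure the spread between these extracts.

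An IAP provirus carries gag, pro and pol genes between LTRs, the LTR holding the promoter and the polyadenylation signal. Recombination between LTRs leaves single LTRs without an internal part, and most copies are truncated or mutated. IAPs are a well-known target of DNA methylation, of TRIM28 and SETDB1 with their zinc finger adaptors, and, in the male germ line, of the piRNA pathway. The table identifies a copy by a number within its subfamily, and the position and sequence of the copies were not analysed here.

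Gene counts summed to 13697267 to 27462358 per RNA library and 7609932 to 13233565 per footprint library, and IAP counts to 8168 to 13546 and 2437 to 3861. *Mael* held 5045, 4314 and 3800 RNA counts in *Mael*+/- libraries and 1, 2 and 0 in *Mael*-/- libraries, which fits the labels. Levels below are CPM (counts per 1e+06), scaled by the gene total and its TMM factor. The libraries of *Mael*+/- extract 1 stood apart in markers of pachytene spermatocytes, germ cells in the prophase of the first meiotic division. The sum of 8 such markers was 761 CPM in its RNA against 234 and 255 in the other *Mael*+/- libraries and 178 to 212 in *Mael*-/- libraries. In footprints it was 976 against 269 and 332, and 231 to 274. No marker of pachytene spermatocytes, spermatogonia, Sertoli cells, Leydig cells or macrophages passed the test in either assay. The pachytene markers tested were nonetheless all lower in *Mael*-/- testes. In RNA they were 7 of 7 (median log2 fold change -1.54, 5 at an unadjusted p under 0.05), and in footprints 6 of 6 (-1.83, 5). *Ccna1*, not tested in footprints, was higher there, at 0.319, 0.516 and 0.586 CPM against 0.606, 0.799 and 1.07. *Pgk2* was tested in neither assay. The sizes include the high values of *Mael*+/- extract 1. *Clgn*, the median in RNA, was at 94.7, 19.2 and 24.4 CPM against 18.7, 16.3 and 12.8, and *Ldhc* RNA overlapped. The markers without that extract were not tested. The 7 macrophage markers all had positive log2 fold changes in both assays (medians 0.30 and 0.27, with 1 and 0 at an unadjusted p under 0.05). For *Cd68* RNA the value was only 0.0048, with means of 5.92 CPM in *Mael*+/- and 5.90 in *Mael*-/- testes. Over all genes tested, an unadjusted p under 0.05 was reached by 5.39% in RNA and 4.33% in footprints. The median log2 fold change of all genes was -0.01 in both assays. Summed markers of the other 4 cell types overlapped between genotypes. In whole testes, fewer cells of a type and less RNA per cell cannot be told apart.

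Summed over all copies, IAP RNA was 1.30-fold higher without Maelstrom, and the ratio was larger for LTRs (1.79) than for internal parts (1.23). All IAP RNA came to 391, 351 and 436 CPM in *Mael*+/- testes and 591, 446 and 493 in *Mael*-/- testes. The *Mael*-/- values all lay above the *Mael*+/- values. The difference of mean log2(CPM + 1) was 0.37 (exact permutation test, two-sided, p = 0.1, the smallest p that 3 against 3 allows). LTR RNA also did not overlap, at 45.8, 45.5 and 50.5 CPM against 90.8, 81.4 and 81.8 (exact permutation p = 0.1). Internal parts overlapped between genotypes, with means of 346 ± 40.2 and 425 ± 69.2 CPM (SD, n = 3, exact permutation p = 0.2). RNA of all repeats summed was 1.14-fold higher in *Mael*-/- testes, with overlap (exact permutation p = 0.3). As a share of repeat counts, IAP RNA overlapped, at 0.374, 0.426 and 0.498% in *Mael*+/- and 0.524, 0.429 and 0.516% in *Mael*-/- libraries.

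Footprints on IAPs did not follow at the level of the total. They came to 292, 319 and 252 CPM in *Mael*+/- testes and 293, 288 and 288 in *Mael*-/- testes (exact permutation p = 0.9). Footprints on internal parts averaged 225 ± 20.0 and 206 ± 0.541 CPM (SD, n = 3, exact permutation p = 0.4), and those on LTRs 63.2 ± 22.8 and 83.6 ± 2.92 (exact permutation p = 0.4). The groups overlapped in all 3 sums. The LTR sum was 50.8, 89.6 and 49.3 CPM in *Mael*+/- and 86.9, 82.2 and 81.7 in *Mael*-/- libraries. Of this, the single copy IAPLTR3_25 gave 7.76, 52.8 and 18.7 CPM and 24.0, 13.4 and 17.9 CPM. That copy had only 25 RNA counts, and the LTR sum without it was not tested. The ratio of LTR to internal counts did not overlap between genotypes in either assay. It was higher in *Mael*-/- testes by 0.55 on the log2 scale in RNA and by 0.58 in footprints (exact permutation p = 0.1 each, 0.114 after Benjamini-Hochberg adjustment over 8 ratios).

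The study is about LINE-1 (L1), and against the young L1 subfamilies the IAP difference was small. L1Md_T RNA rose from 69.4 ± 14.96 to 432 ± 112 CPM (SD, n = 3), and L1Md_A from 31.8 ± 7.96 to 235 ± 57.8. Summed, this pair was 6.59-fold higher in RNA and 5.12-fold higher in footprints. The log2 ratio of IAP to this pair was lower in *Mael*-/- testes by 2.34 in RNA and 2.33 in footprints, without overlap (exact permutation p = 0.1 each, adjusted 0.114). Against the 289873 copies of other ERVK elements, IAP RNA was higher in *Mael*-/- testes by 0.25 on the log2 scale without overlap (exact permutation p = 0.1, adjusted 0.114), while the footprint ratio overlapped (difference -0.12, exact permutation p = 0.2).

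Of the 25 subfamilies, 23 passed the filter on low counts in RNA, and 5 rose in *Mael*-/- testes at an adjusted p under 0.05 in edgeR's quasi-likelihood test over all 1114 subfamilies tested. They were the LTRs IAPLTR2_Mm and IAPLTR2a and the internal parts IAPEy-int, IAP-d-int and IAP1-MM_I-int. Of all subfamilies tested, 0.898% were called, each of them higher. Positive fold changes were seen in 20 of the 23, against 68.1% of all subfamilies, and 11 had an unadjusted p under 0.05, against 5.57%. Among the 11, IAPLTR3 was lower. The 23 had a median log2 fold change of 0.50 and all 1114 one of 0.09. In 14 of the 23, every *Mael*-/- library lay above every *Mael*+/- library, which held for 9.34% of all subfamilies, and in IAPLTR3 every one lay below, which held for 1.8%.

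IAPLTR2_Mm had the largest rise in RNA of the IAP subfamilies tested. It stood at 4.47, 5.94 and 6.06 CPM in *Mael*+/- testes and at 21.9, 23.0 and 20.4 in *Mael*-/- testes. The groups were far apart and the spread within each was small. The log2 fold change was 1.98 (adjusted p 2.85e-05 in edgeR, SE 0.22). IAPLTR2a, a related LTR, stood at 2.34, 2.49 and 2.39 CPM and at 8.61, 8.43 and 8.11. Its SDs were 0.0763 and 0.252 CPM, and the log2 fold change was 1.80 (adjusted p 6.22e-05 in edgeR, SE 0.21).

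Among internal parts, IAPEy-int rose from 10.03, 6.27 and 7.62 CPM to 29.3, 22.5 and 17.7. The *Mael*-/- libraries differed among themselves, yet the lowest lay above all *Mael*+/- libraries, and the log2 fold change was 1.54 (adjusted p 0.00239 in edgeR, SE 0.25). IAP-d-int rose from 7.38, 6.82 and 8.30 CPM to 20.8, 16.7 and 16.6, a log2 fold change of 1.26 (adjusted p 0.00342 in edgeR, SE 0.21). IAP1-MM_I-int rose from 27.7, 31.5 and 24.6 CPM to 52.8, 47.0 and 52.4, a log2 fold change of 0.86 (adjusted p 0.0353 in edgeR, SE 0.19). This last call was lost in 4 of the 6 fits that left out 1 library (without *Mael*+/- replicate 3 or any 1 *Mael*-/- replicate, adjusted p 0.0703 to 0.319).

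The subfamily with the most IAP counts, IAPEz-int, with 7295 copies, was not among the called. Its RNA was at 140.4, 130.2 and 164 CPM in *Mael*+/- testes and 177, 140.2 and 148 in *Mael*-/- testes. The values overlapped, with a log2 fold change of 0.10 (SE 0.17, 95% interval -0.27 to 0.47, edgeR adjusted p 0.996) that became -0.0154 when repeats were scaled by their own totals. Nor was IAPEY4_I-int, an internal part at 89.9, 92.7 and 124 CPM against 143, 91.1 and 123 (log2 fold change 0.22, SE 0.20, edgeR adjusted p 0.996).

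Short of the threshold, several LTRs had higher RNA without overlap. IAPEY2_LTR (log2 fold change 0.94), IAP1-MM_LTR (0.91), IAPLTR2b (0.91), IAPLTR1_Mm (0.89) and IAPEY_LTR (0.64) had edgeR adjusted p-values of 0.0704, 0.104, 0.0708, 0.156 and 0.339. IAPEY5_LTR (0.58), IAPEY3_LTR (0.50), IAPEY3-int (0.44) and IAPLTR1a_Mm (0.41) were also without overlap. IAPEY4_LTR, IAPLTR4_I, IAPLTR4 and IAPEY5_I-int overlapped between genotypes, with log2 fold changes of 0.07 to 0.36. IAPLTR2a2_Mm, by name a close relative of the LTR that rose, lay at 6.03, 5.72 and 5.69 CPM against 6.22, 6.15 and 4.80 (log2 fold change -0.03, SE 0.21). IAPLTR3-int overlapped as well (-0.11).

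IAPLTR3 was the only IAP subfamily tested with lower RNA in all *Mael*-/- libraries, at 5.04, 0.770 and 1.52 CPM against 0.651, 0.446 and 0.582. The highest value came from *Mael*+/- extract 1, which stood apart in pachytene markers, and the part of those cells in the value was not tested. The log2 fold change was -2.11 (adjusted p 0.114 in edgeR, SE 0.56). It was called lower in DESeq2, without *Mael*+/- RNA replicate 2, without replicate 3, with replicate number as a block, and without the top copy of each subfamily. It was not called without *Mael*+/- RNA replicate 1, the library with the highest value, or without any 1 *Mael*-/- RNA replicate. IAPA_MM-int, with 12 RNA counts over all libraries, and IAPEY3C_LTR, with 47, did not pass the filter.

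**Figure D1:**
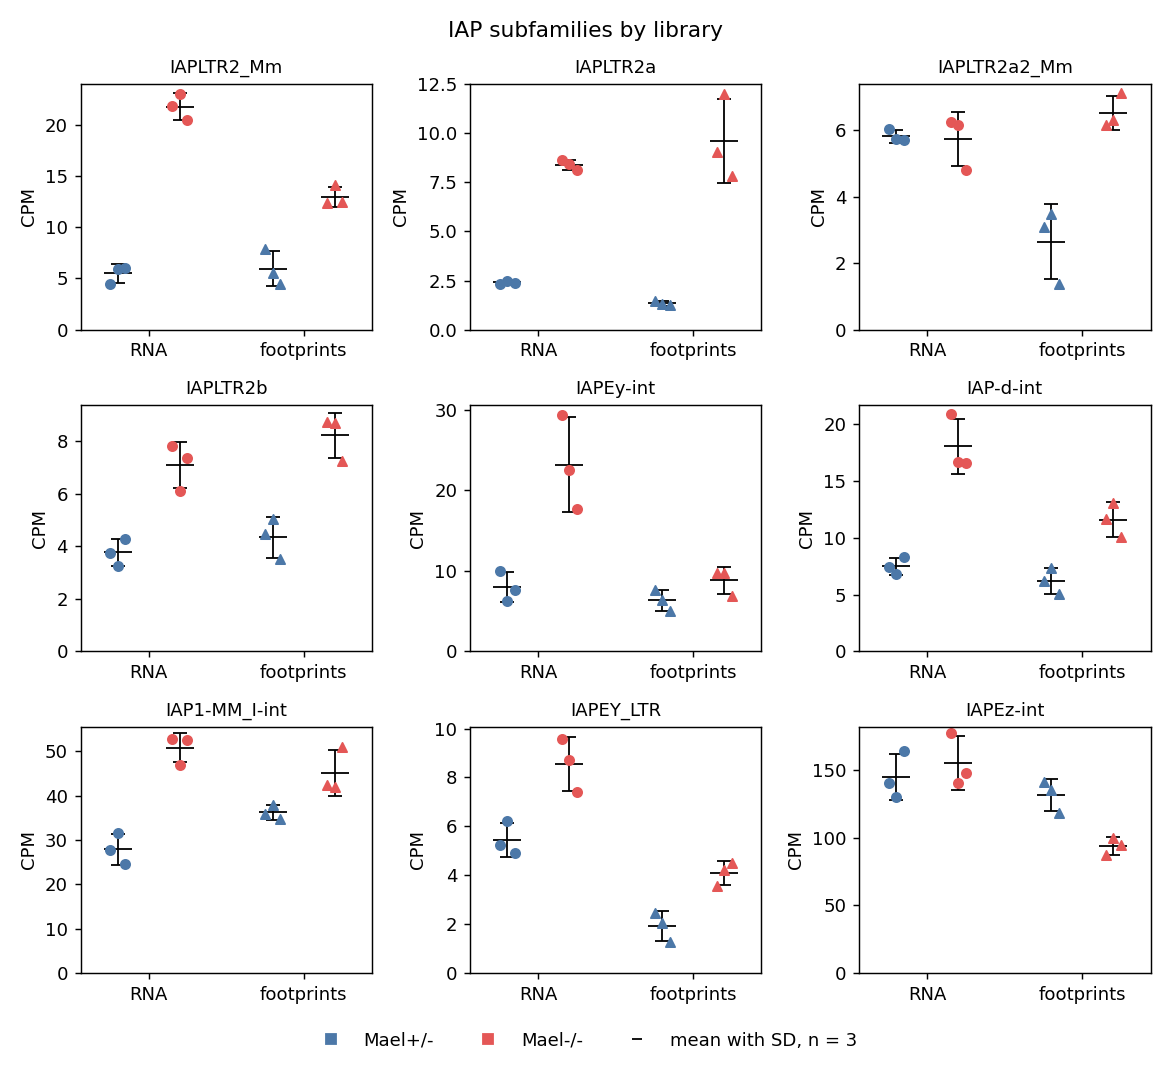
CPM per library for the 8 IAP subfamilies called in RNA or footprints and for IAPEz-int, with RNA as circles and footprints as triangles, *Mael*+/- in blue and *Mael*-/- in red, and the mean with SD (n = 3) in black. IAPLTR2_Mm is higher in all *Mael*-/- libraries of both assays, IAPLTR2a2_Mm is higher in footprints but overlaps in RNA, and IAPEz-int overlaps in RNA and is lower in *Mael*-/- footprints.

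In footprints, 22 subfamilies were tested, and 6 rose: the LTRs IAPLTR2a, IAPLTR2a2_Mm, IAPLTR2_Mm, IAPEY_LTR and IAPLTR2b and the internal part IAP-d-int. Over all 1045 subfamilies tested, 1.82% were called and 1.15% were called higher. IAP-d-int, IAPLTR2_Mm and IAPLTR2a were called in both assays. An unadjusted p under 0.05 was reached by 10 of the 22, against 7.46% of all. Among these, IAPEz-int and IAPLTR3 were lower, IAPLTR3 with a log2 fold change of -0.59 and overlap between genotypes. Log2 fold changes were positive in 16 of the 22, against 73.8% of all subfamilies, with a median of 0.35 against 0.13. In 9 of the 22 all *Mael*-/- libraries were higher than all *Mael*+/- libraries (11.4% of all subfamilies), and in IAPEz-int all were lower (1.72%).

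IAPLTR2a had the largest footprint change of the IAP subfamilies tested. It went from 1.49, 1.29 and 1.27 CPM to 9.02, 11.98 and 7.81, a 7.12-fold ratio of means. The log2 fold change was 2.82 (adjusted p 1.35e-21 in edgeR, SE 0.28), and the call was kept under each alternative tried. The fit found no variation of the spread between subfamilies beyond its trend with abundance, and gave each subfamily the spread of that trend. Adjusted p-values in footprints can therefore be far smaller than 3 libraries per group would give alone.

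IAPLTR2a2_Mm footprints rose from 3.08, 3.48 and 1.37 CPM to 6.14, 6.29 and 7.10 (log2 fold change 1.32, SE 0.26, edgeR adjusted p 6.46e-05), while its RNA had overlapped. IAPLTR2_Mm rose from 7.86, 5.55 and 4.49 CPM to 12.4, 14.1 and 12.4 (1.12, SE 0.21, edgeR adjusted p 2.55e-05). IAPLTR2b rose from 4.46, 5.03 and 3.51 CPM to 8.72, 8.69 and 7.22 (0.94, SE 0.23, edgeR adjusted p 0.00436). All 4 subfamilies with a name beginning IAPLTR2 were thus called higher in footprints, and 2 of them in RNA, but with the repeats' own scaling IAPLTR2a2_Mm and IAPLTR2b were no longer called in footprints (edgeR adjusted p 0.0581 and 0.0640). IAPEY_LTR rose from 2.44, 2.06 and 1.27 CPM to 3.56, 4.19 and 4.50 (1.08, SE 0.31, edgeR adjusted p 0.0258), and IAP-d-int from 6.16, 7.36 and 5.07 to 11.6, 13.1 and 10.1 (0.91, SE 0.22, edgeR adjusted p 0.00193). Without *Mael*+/- footprint replicate 3, which had the lowest *Mael*+/- value in all 6, only IAPLTR2a was called, and without *Mael*-/- footprint replicate 2, 3 of the 6 were, with IAP-d-int, IAPEY_LTR and IAPLTR2b lost. Without *Mael*-/- footprint replicate 1, IAPEY_LTR and IAPLTR2b were lost. The call of IAPEY_LTR was lost in 5 of the 6 fits that left out 1 library (edgeR adjusted p 0.0680 to 0.319), in DESeq2 (adjusted p 0.151) and with the repeats' own scaling (0.121). With that scaling IAP-d-int was lost as well (edgeR adjusted p 0.0640).

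IAPEz-int footprints went the other way, at 141, 135 and 118 CPM in *Mael*+/- testes and 87.2, 100.04 and 94.9 in *Mael*-/- testes. Every *Mael*-/- library lay below every *Mael*+/- library. The log2 fold change was -0.48 (adjusted p 0.262 in edgeR, SE 0.18), short of the threshold, and it passed (adjusted p 0.00815) when repeats were scaled by their own totals, which lowers all repeat fold changes. IAPEy-int, called in RNA, overlapped in footprints at 7.65, 6.32 and 4.98 CPM against 9.78, 9.78 and 6.86 (log2 fold change 0.49, SE 0.22, edgeR adjusted p 0.499).

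**Figure D2:**
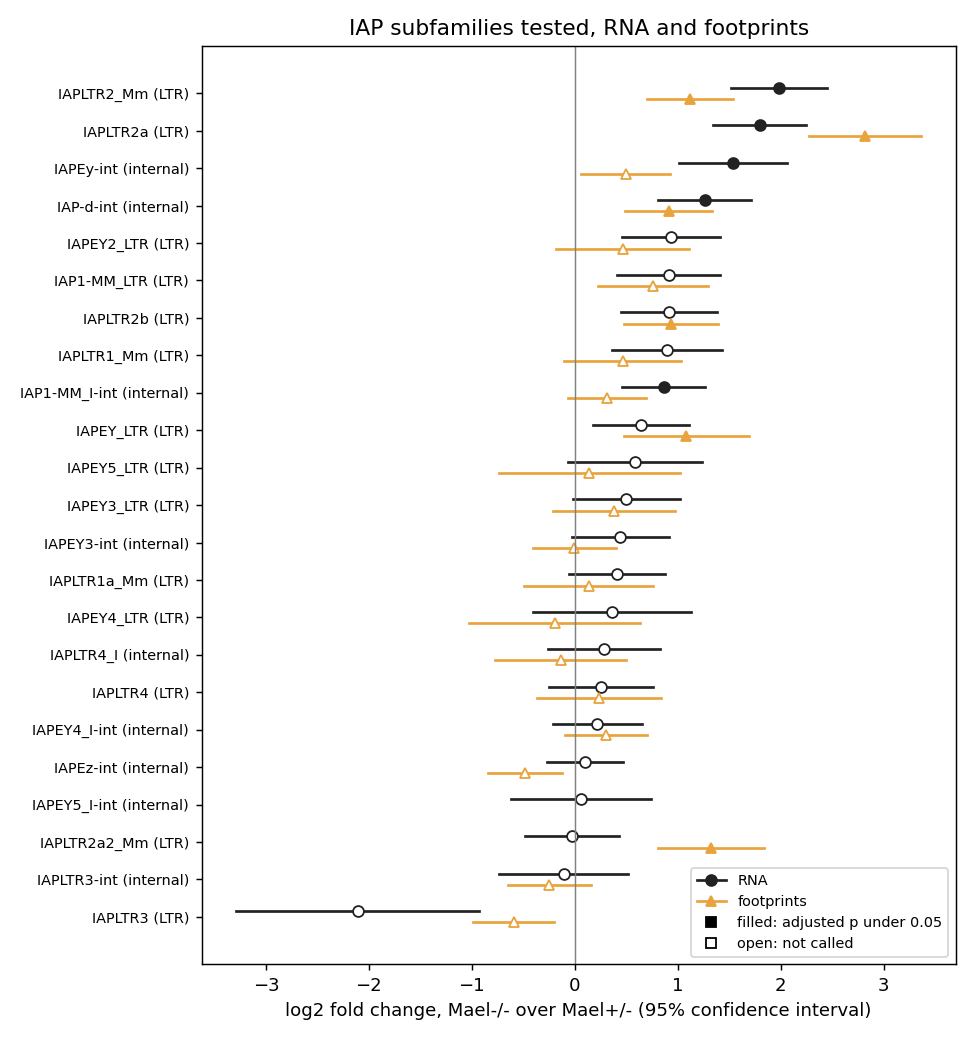
Log2 fold change of *Mael*-/- over *Mael*+/- testes with its 95% confidence interval for the 23 IAP subfamilies tested, in RNA (black circles) and footprints (orange triangles), with filled symbols for an adjusted p under 0.05. IAPLTR2_Mm leads in RNA at 1.98 and IAPLTR2a in footprints at 2.82, and IAPEY5_I-int has no footprint value because it did not pass the filter there.

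Translation efficiency, the change of footprints beyond that of RNA, was tested as an interaction over all 12 libraries. In edgeR 0 of 23 IAP subfamilies and 0 of 1148 subfamilies passed, with 7 IAP subfamilies at an unadjusted p under 0.05 (3.05% of all). With each extract as a block the counts were 0 and 8 (4.44% of all), and DESeq2 gave 0 and 6. The interaction was negative in 16 of 23 and positive in 7 (55.1% of all were positive), with a median of -0.28 against 0.04 over all subfamilies. IAPLTR2a2_Mm had a value of 1.35 (SE 0.34, 95% interval 0.64 to 2.06, edgeR adjusted p 0.733, and 0.0872 with the extract block). IAPLTR2a, whose footprints changed more than its RNA, had 1.03 (SE 0.33, edgeR adjusted p 0.831, and 0.576 with the extract block). IAPLTR2_Mm, whose RNA changed more, had -0.86 (SE 0.30, edgeR adjusted p 0.831, and 0.576 with the extract block). IAPEy-int was at -1.04 (SE 0.34, edgeR adjusted p 0.831, and 0.217 with the extract block), and IAPEz-int at -0.58 (SE 0.24). Since none passed, differences between the assays were not established for single subfamilies, and 7 of the 23 had intervals within 1 log2 unit of 0.

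Footprint to RNA ratios of the group means differed widely among subfamilies. By the methods, gene counts covered whole mRNAs in RNA but coding sequences alone in footprints. The CPM scales of the assays are therefore not alike, and a ratio has no meaning by itself. In *Mael*+/- testes the ratio of CPM was 0.908 for IAPEz-int, 0.171 for IAPEY4_I-int and 12.2 for IAPLTR3. The last value came from 1 copy. IAPLTR3_25 held 1276 of the 1395 footprint counts of its subfamily (91.5%), with 73, 409 and 192 in *Mael*+/- and 317, 134 and 151 in *Mael*-/- libraries, and only 25 RNA counts. IAP1-MM_I-int_411 held 1363 footprint counts (234, 184 and 240 against 280, 203 and 222), or 56.8% of its subfamily, and 0 RNA counts in each of 6 libraries, a count of 0 allowing up to 3. Without the top copy of each subfamily, IAP1-MM_I-int footprints were called higher in *Mael*-/- testes (log2 fold change 0.89, edgeR adjusted p 0.00222), against 0.32 (adjusted p 0.842) with it. In the same fit IAPLTR3 was called lower, and the footprint call of IAP-d-int was lost (log2 fold change 0.66, edgeR adjusted p 0.232). IAPEz-int_6575, chosen after its values were seen, had 295 footprint and 14 RNA counts. Whether such footprints came from ribosomes on IAP RNA was not tested.

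Subfamilies differed in how many copies carried their counts. IAPEz-int was spread widely, with 200 copies needed for 50% of its RNA counts and 1.45% on its top copy. IAPLTR2_Mm needed 23 copies, IAPEY4_I-int 4, and in IAPLTR4 and IAPEY_LTR 1 copy alone held 68.7% and 55.3%. Reads of near-identical copies may be placed on the wrong copy, so counts of single copies are uncertain. The methods describe Telescope for the reassignment of ambiguous reads in a repeat analysis, and whether it was applied to these libraries is not stated.

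**Figure D3:**
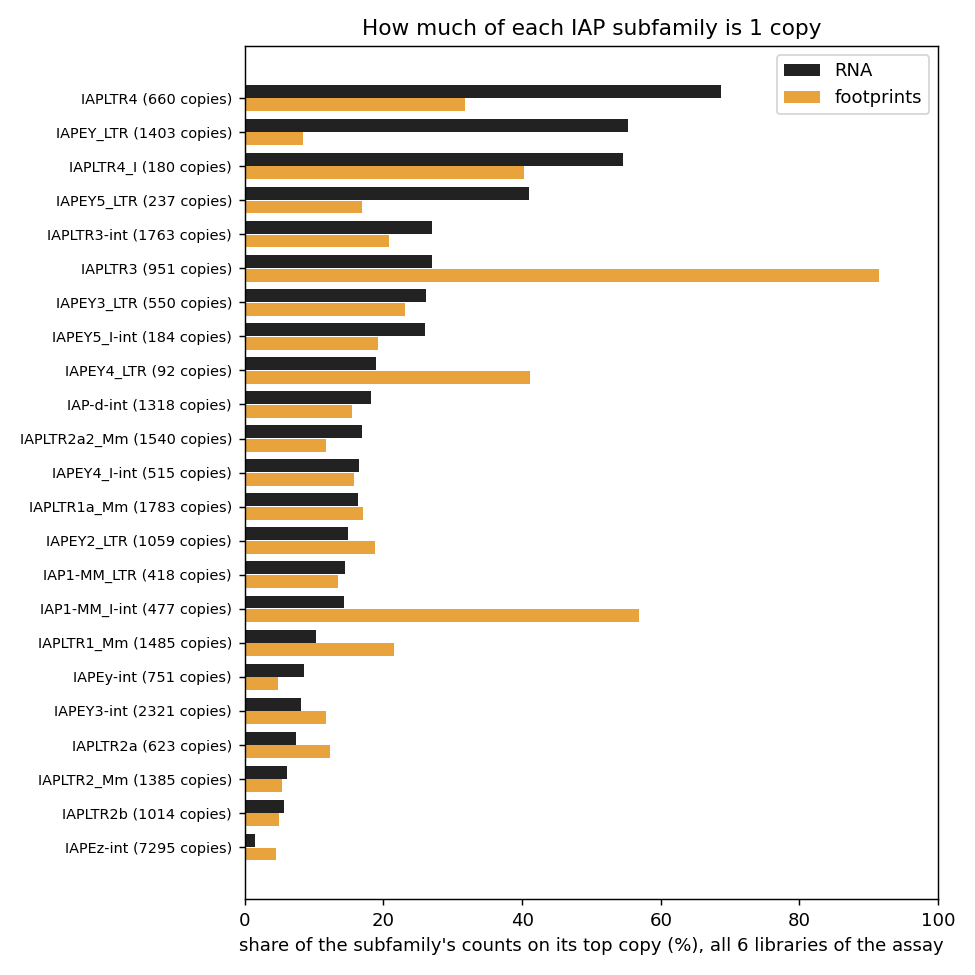
Share of each IAP subfamily's counts that fell on its top copy, in percent, over the 6 RNA libraries (black) and the 6 footprint libraries (orange), for subfamilies with at least 100 RNA counts. The top copy was chosen in each assay separately, and IAPLTR3 reaches 91.5% in footprints while IAPEz-int stays at 1.45% in RNA.

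Among single copies, 154 of 28601 (0.538%) passed the filter in RNA, and these held 55.3% of IAP RNA counts. In edgeR 20 of the 154 were called, 19 higher and 1 lower in *Mael*-/- testes, where 1.61% of all 16710 copies tested were called and 1.51% were called higher. A copy silent or nearly so in 1 genotype passed the filter only by its counts in the other. It could then hardly be called other than higher there, so its direction is no result. The 4 called copies of IAPLTR2_Mm were of this kind, with 0 to 4 RNA counts in each *Mael*+/- library. With a filter of at least 10 counts in 3 libraries, 17 copies were called, 15 higher and 2 lower, and 14 of the 20 were kept. The called copies were 14 internal parts and 6 LTRs. IAP1-MM_I-int gave 5 of its 21 tested copies, IAPEy-int 4 of 7, IAPLTR2_Mm 4 of 6 and IAP-d-int 3 of 8, all higher, while no called copy was from IAPEz-int.

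IAP-d-int_1094 had 16, 9 and 28 RNA counts in *Mael*+/- and 56, 85 and 107 in *Mael*-/- libraries. The *Mael*-/- libraries were close in CPM at 4.05, 4.21 and 3.89, and the log2 fold change was 2.54 (adjusted p 1.26e-05 in edgeR, SE 0.32). Its footprints also rose, from 0, 3 and 5 counts to 31, 28 and 16 (log2 fold change 2.96, SE 0.53, edgeR adjusted p 0.00346). It was 1 of 2 IAP copies called in footprints among 22 tested (0.817% of all 5511 copies tested, 0.563% higher). IAP1-MM_I-int_155 rose from 26, 39 and 32 RNA counts to 43, 73 and 103 (log2 fold change 1.47, SE 0.26). IAP1-MM_I-int_16 rose from 31, 55 and 37 to 46, 65 and 97, which at the different depths is a log2 fold change of 1.08 (SE 0.26). Its call was lost in 4 of the 6 fits that left out 1 library (without *Mael*+/- replicate 3 or any 1 *Mael*-/- replicate, edgeR adjusted p 0.0716 to 0.119). IAPEy-int_223 rose from 17, 11 and 23 counts to 44, 36 and 35 (1.58, SE 0.36, edgeR adjusted p 0.0162), a call that was lost without *Mael*+/- RNA replicate 2 (adjusted p 0.0716) and without *Mael*-/- RNA replicate 1 (0.195).

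Some LTR copies were at 0 in every *Mael*+/- RNA library. These were named after their values were seen. IAPLTR2_Mm_1186 had 22, 26 and 26 counts in *Mael*-/- libraries, at least 10.8-fold higher against 3 counts per library. IAPLTR2_Mm_1344 had 12, 18 and 19, at least 6.93-fold higher. IAPLTR2a_49 had 9, 17 and 19, at least 6.18-fold higher, and IAPLTR1_Mm_372 had 6, 17 and 15, at least 5.15-fold higher. The call of IAPLTR1_Mm_372 was lost without *Mael*-/- RNA replicate 2 (edgeR adjusted p 0.0788). In footprints, IAPLTR2a_319, also named by its value, went from 0, 0 and 1 counts to 14, 16 and 11, a pooled ratio of 35.5 (95% counting interval 6.02 to 1436), with only 1 RNA count in all 6 libraries. Its call was lost when any 1 *Mael*-/- footprint library was left out.

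The 1 lower copy was IAPLTR3-int_1685, with 128, 15 and 22 RNA counts in *Mael*+/- and 0, 0 and 2 in *Mael*-/- libraries, a pooled ratio of 0.0151 (95% counting interval 0.0018 to 0.0555). Its highest value was again in *Mael*+/- extract 1. Without that library the log2 fold change was -4.22. The part of pachytene cells was not tested.

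The 3 most abundant copies in RNA, all of IAPEY4_I-int, were not called. IAPEY4_I-int_499, IAPEY4_I-int_460 and IAPEY4_I-int_136 had log2 fold changes of 0.16, 0.14 and 0.33 (edgeR adjusted p 0.922, 0.931 and 0.787). IAPEY4_I-int_499 alone had 352, 424 and 530 counts in *Mael*+/- and 274, 329 and 566 in *Mael*-/- libraries.

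**Figure D4:**
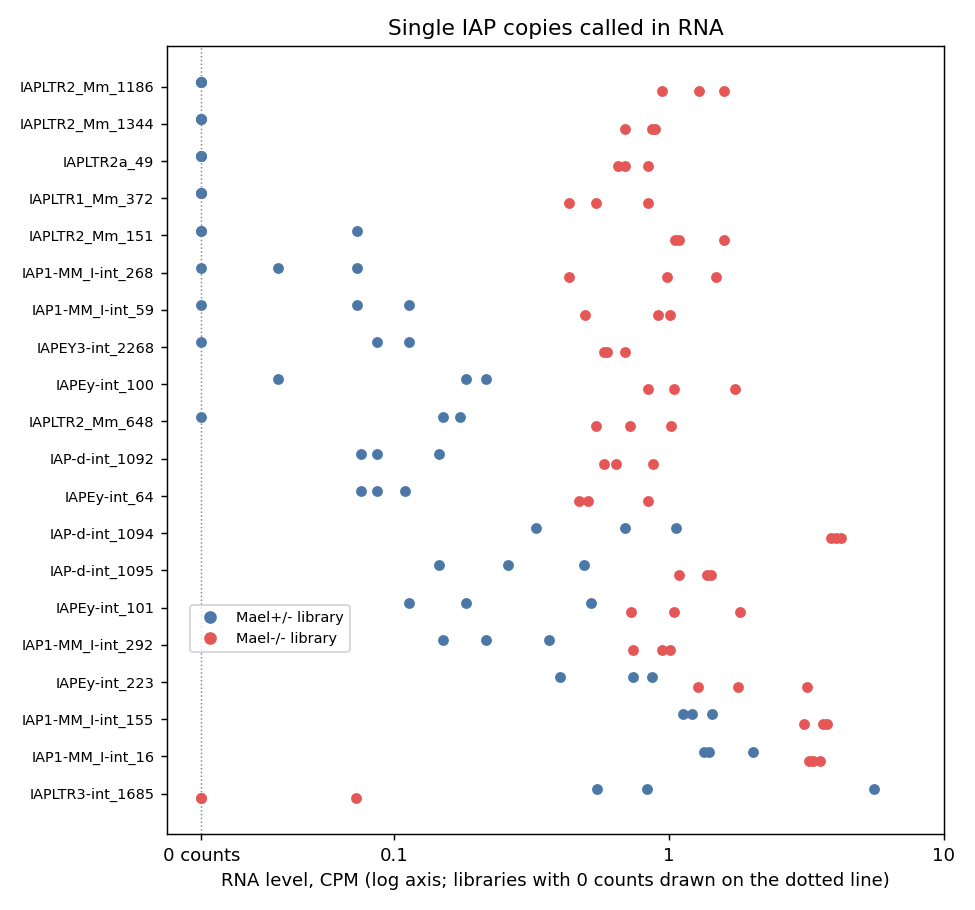
RNA level in CPM on a log axis for the 20 single IAP copies called in RNA, 3 *Mael*+/- libraries in blue and 3 *Mael*-/- libraries in red per copy, with libraries at 0 counts drawn on the dotted line. In 19 copies the *Mael*-/- libraries lie higher, and in IAPLTR3-int_1685 they lie lower.

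Called copies carried only part of each subfamily's rise in RNA. They accounted for 24.4% of the difference in CPM of IAPLTR2_Mm, 12.2% of IAPLTR2a, 25.7% of IAPEy-int, 27.8% of IAP1-MM_I-int and 47.0% of IAP-d-int. Without its 4 called copies IAPLTR2_Mm still went from 5.36 to 17.7 CPM. Of its copies, 45 had RNA counts in *Mael*+/- libraries alone and 176 in *Mael*-/- libraries alone, although the *Mael*-/- libraries were on the whole sequenced less deeply. For IAPLTR2a these numbers were 15 and 90, for IAPEy-int 27 and 84, and for IAPEz-int 581 and 551. Copies with few counts were higher as well. The 4791 copies with 1 to 5 counts over the 12 libraries summed to 36.5 ± 4.52 and 56.5 ± 8.33 CPM in RNA (SD, n = 3), 1.55-fold without overlap. The ratio was 1.37 for 1442 copies with 6 to 20 counts and 1.33 for 454 copies with 21 to 100, both without overlap, and 1.21 with overlap for 81 copies above 100. Footprints overlapped in all 4 classes, with ratios of 0.936 to 1.06. Copies seen in 1 genotype alone and these classes were not counted over all repeats, so what is particular to IAPs cannot be judged from them. RNA of all repeats summed was 1.14-fold higher, with overlap.

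Of 23 genes that silence IAPs or make piRNAs, 21 were in the table and tested. *Mael* alone was called, lower in both assays, where 0.116% of genes were called in RNA and 0.0593% in footprints. An unadjusted p under 0.05 was reached by 6 of the 21 in RNA (5.39% of all genes) and by 4 in footprints (4.33%). All of these had negative fold changes and their highest level in *Mael*+/- extract 1, the part of which was not tested. *Dnmt3c* and *Spocd1* were not matched. The other 20 genes had RNA log2 fold changes from -0.51 for *Tdrd9*, a helicase of the piRNA pathway, to 0.25 for *Hells*, a chromatin remodeller. The median of the 21 was -0.09, against -0.01 over all genes, and *Trim28*, *Setdb1* and *Dnmt1* were not called.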

How the data were processed

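RNA and ribosome footprints came from aliquots of the same cycloheximide-treated testis extracts. Per the labels and the methods, the authors aligned reads to mm10 with STAR 2.6.0c, after removing ribosomal footprints with Bowtie 1.2.2, and counted them with featureCounts of Subread 1.6.4. By the methods, RNA reads were counted over whole mRNAs and footprints over coding sequences alone. The authors deposited raw whole-number counts for genes and single repeat copies. For repeats, the methods describe STAR alignments with several placements per read and Telescope to reassign ambiguous reads, without stating that this was applied to these libraries. Unique molecular identifiers were trimmed, and collapsing of duplicates is not stated, so intervals and floors cover counting error only. The deposited result tables of the authors' DESeq2 1.24.0 analyses, which hold log2 fold changes and p-values, were not used.

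Copies were summed by subfamily and tested with edgeR 4.0.16 in R 4.3.3 (glmQLFit, glmQLFTest, filterByExpr), with the gene totals and TMM factors as library sizes, Benjamini-Hochberg adjustment over all features tested and a threshold of 0.05. Standard errors were the fold change divided by the square root of F. DESeq2 1.42.0 and limma 3.58.1 served as alternatives, and exact permutation tests used scipy 1.17.1. RNA and footprint libraries of 1 extract deviated together (r across 13446 genes 0.744, 0.590 and 0.636 in *Mael*+/-, 0.241, 0.221 and 0.228 in *Mael*-/-), above the limit of 0.1 for pairing. Tests were tried on simulated data. IAP copies and gene lists were chosen with earlier results of these data known. Named copies were the 5 with the highest mean CPM and up to 5 called each way per assay, ranked by fold change, that averaged 20 counts or more without overlap between genotypes. *Adgre1* was matched by its older symbol *Emr1*.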

Additional observations from a re-analysis of the deposited data

How the results depend on the processing

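IAP subfamilies called in RNA numbered 5, and 11 with replicate number as a block (10 higher, and IAPLTR3 lower), 10 without the top copy of each subfamily (9 higher, and IAPLTR3 lower), and 4 to 7 when 1 library was left out. IAPLTR2_Mm, IAPLTR2a, IAPEy-int and IAP-d-int were called in each of these fits and in those with median-of-ratios factors, DESeq2 (7 called), no filter, the repeats' own scaling, robust quasi-likelihood and limma voom. The last 2 were chosen after seeing the data. Footprint subfamilies numbered 6, and 3 with the repeats' own library sizes and TMM factors (IAPLTR2a and IAPLTR2_Mm higher, IAPEz-int lower), and 1 to 8 when 1 library was left out. That scaling moved the median of all subfamilies from 0.13 to 0.00 in footprints and from 0.09 to -0.01 in RNA. Called copies ranged from 18 to 34 in RNA (34 without *Mael*+/- RNA replicate 1) and from 1 to 2 in footprints over fits that left out 1 library. IAPEz-int RNA (0.10) turned to -0.0154 with the repeats' own scaling and ran from -0.00629 to 0.198 when 1 library was left out, and IAPLTR2a2_Mm RNA (-0.03) turned to 0.0595 without top copies and ran from -0.0903 to 0.0943 when 1 library was left out. The causes were not tested. Same-numbered libraries of the 2 genotypes share only a number (r across genes 0.000906 to 0.208), so the replicate block is no pairing by design. It gave 24 copies in RNA, 6 subfamilies and 2 copies in footprints. A fit restricted to copies outside annotated genes was not run. Depth limits single copies: 154 of 28601 could be tested in RNA and 22 in footprints.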
